A study of Mus musculus with 86 samples.

Results

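The transcriptome of the resting soleus (SO) was compared with that of the resting gastrocnemius (GA) in mice that received no dexamethasone. The libraries were chosen by their muscle and treatment labels alone: 5 of SO and 5 of GA, 10 of the 86 in the series. The mice were 10-week-old C57BL/6N males. Both groups were given PBS into the peritoneum and PBS by gavage daily for 10 days, and whole muscles of the hind leg were frozen. The remaining 76 libraries came from mice given 25 mg/kg dexamethasone a day with PBS, with 1 of 3 herbal extracts at 100 or 400 mg/kg or with resveratrol at 200 mg/kg, and serve here to repeat the comparison of the muscles in other mice, and in alternatives that share the spread or estimate a difference between sets of libraries.

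A skeletal muscle fibre is built around 1 or more of the adult myosin heavy chains, which set how fast it shortens. Slow type I fibres carry Myh7, hold many mitochondria, burn fat and resist fatigue. Type IIA, IIX and IIB fibres carry Myh2, Myh1 and Myh4 in order of rising speed, and the fastest rely on glycogen and glycolysis. The soleus is the postural muscle of the calf and the gastrocnemius, beside it, is used for fast movement. Whole muscle also holds vessels, nerve, connective tissue and blood, so each value is a mean over these cells.

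The muscles differed in most of their transcripts. In the soleus most transcripts of slow contractile proteins, of fat oxidation and of heat shock proteins and chaperones were higher. In the gastrocnemius Myh4, most transcripts of calcium handling, glycolysis and glycogen enzymes and that of the growth inhibitor Mstn were higher. Of 13757 genes tested, 8441 differed at an adjusted p under 0.05 (edgeR's quasi-likelihood test with Benjamini-Hochberg adjustment, here "called"), which is 61.4% of them. Of these, 4373 were higher in SO (31.8%) and 4068 lower (29.6%). With libraries scaled by total counts in place of TMM factors, 5086 were higher and 3366 lower. A difference is given throughout as log2 of SO over GA, so a positive value means higher in SO, and levels are counts scaled to library size (CPM). The median difference over all genes was 0.02. Most called differences were small: 4677, or 55.4% of those called, were under 1.5-fold. A test of differences over 2-fold was passed by 1106 genes, 8.04% of those tested, 524 higher (3.81%) and 582 lower (4.23%) in SO. The 5 libraries of the muscles did not overlap for 47.3% of all genes tested.

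Sequencing depth was 25.5 to 32.1 M counts a library, and the 10 most abundant genes took 27.5 to 31% of them. Correlations across genes, which are not independent replicates, had a median of 0.988 to 0.992 with libraries of the same muscle and 0.934 to 0.943 with the other muscle. Myonuclear markers took 7.15 to 7.41% of counts in GA and 6.86 to 7.3% in SO. Some libraries stood apart from the rest of their group. Among 9013 genes with a mean of at least 5 CPM, the value of SO mouse 4 lay outlying for 4.47%, GA mouse 3 for 2.36%, GA mouse 5 for 2.17% and SO mouse 1 for 1.44%, where a library was outlying when its gap to the next one passed 0.71 of the group's range, which chance gives for about 5% of groups of 5, all 5 libraries together. Without SO mice 1 and 4 and GA mouse 5, an alternative chosen after the data were seen, 8023 genes were called and 1147 passed the test of over 2-fold. Without GA mouse 3 as well, also chosen afterwards, these were 8096 and 1156. The labels name 1 batch for all libraries. By their listed order the libraries were divided into sets of 32, 28 and 26, a division that the labels do not give. The 5 GA libraries lie in the first set and the 5 SO libraries in the second, so that set and muscle cannot be told apart within the 10. With the set as a term, and without 3 treated libraries that stand apart, 5827 genes were called and 825 passed the test of over 2-fold. The term between the first 2 sets rests on a single group, GA with JGT04 at 100 mg/kg, which has 3 libraries in the first set and 2 in the second. The labels number the mice within a group and give no litter or cage, so p-values measure the spread between these libraries.

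Myosin heavy chains gave the clearest division. Myh4 dominated the adult heavy chain transcripts of GA and was nearly missing from SO, where Myh7, Myh2 and Myh1 stood side by side. Shares were taken within each library from CPM per kb of transcript, so that the 4 genes could be compared. In GA, Myh4 made up 90.9, 90.3, 90.7, 90.2 and 91.5% of the 4 in mice 1 to 5. In SO its share was 5.47, 0.613, 0.529, 0.239 and 0.154%. The groups did not overlap, and SO mouse 1 was the highest SO library. The slow Myh7 took 0.665 ± 0.0681% in GA (SD, n = 5) and 32.5, 40.2, 41.3, 36.9 and 36.8% in SO. Myh2 was the largest part in SO at 42.1 ± 1.75% against 3.3 ± 0.734% in GA (SD, n = 5), and in SO mouse 3 it was slightly below Myh7. The share of Myh1 was 19 ± 1.14% in SO and 5.31 ± 0.286% in GA (SD, n = 5). Each of the 4 shares differed by an exact two-sided permutation test (p = 0.0079, adjusted p = 0.0079, n = 5 and 5), the smallest p that 5 against 5 allow.

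**Figure D1:**
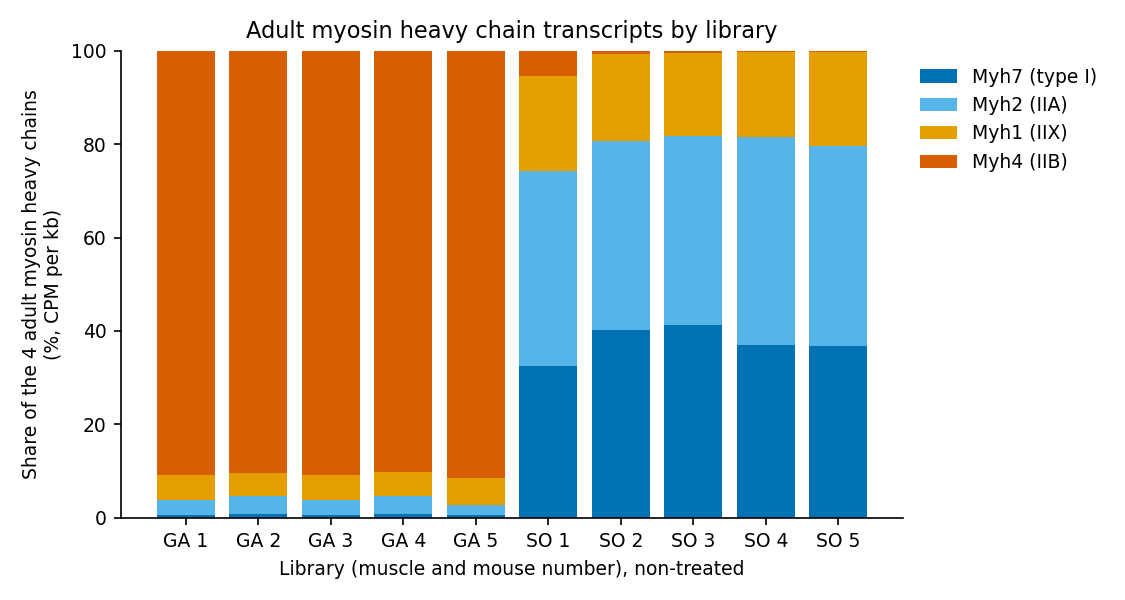
Share of each adult myosin heavy chain in the summed CPM per kb of the 4 genes (vertical axis, percent), with 1 bar per library. Myh4 fills over 90% of each GA bar and at most 5.47% of an SO bar, where Myh7, Myh2 and Myh1 fill the rest.

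As levels, Myh4 read 52823, 48699, 47823, 51984 and 45412 CPM in GA and 1114, 114, 93.9, 43.2 and 27.4 CPM in SO, a difference of -7.47 ± 1.04 (SE, adjusted p = 3.04e-05). The groups did not overlap, and SO mouse 1 stood far above the other SO libraries. Without it the difference of Myh4 was -9.47. Myh7 read 352, 413, 369, 428 and 311 CPM in GA and 6854, 7743, 7588, 6896 and 6806 CPM in SO, a difference of 4.26 ± 0.10 (SE). Myh1 had the larger share in SO but nearly the same level in both muscles, with a difference of 0.29 ± 0.08 (SE, adjusted p = 0.00496). It was not called when all 86 libraries shared a spread (adjusted p = 0.366), when 83 did after the 3 apart were left out (adjusted p = 0.223), or with the set as a term (adjusted p = 0.51). The 4 adult chains are close relatives: 37.9% of the 31-base words of Myh1, 32.8% of those of Myh2, 30.4% of those of Myh4 and 22.9% of those of Myh7 occur in other genes' transcripts, so the authors' estimated split between them carries an uncertainty that the counts do not show.

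The 3 fast genes lie next to each other on chromosome 11 of GRCm38 (GENCODE vM21), Myh2 at 67171027 to 67197517, Myh1 at 67200052 to 67224575 and Myh4 at 67238029 to 67260446, all on the plus strand. Myh7 lies on chromosome 14, 54970684 to 54994626, minus strand. Up to 250 bases before the RefSeq start of each, on GRCm38.p6, are shown because Myh2, Myh1 and Myh4 are neighbours that were higher, nearly level and lower in SO. Capitals mark letters of 3 muscle motifs searched on both strands: the MEF2 site (by name), the E-box CAGCTG and the MCAT element CATTCC. The stretches are chr14:54994627-54994876 (minus strand) for Myh7 and chr11:67170777-67171026, chr11:67199852-67200051 and chr11:67237562-67237811 (plus strand) for Myh2, Myh1 and Myh4. RefSeq and GENCODE place the starts of Myh1 and Myh4 differently: the stretch of Myh1 is ended at 200 bases, before GENCODE's start, and that of Myh4 ends well before it.
Myh7: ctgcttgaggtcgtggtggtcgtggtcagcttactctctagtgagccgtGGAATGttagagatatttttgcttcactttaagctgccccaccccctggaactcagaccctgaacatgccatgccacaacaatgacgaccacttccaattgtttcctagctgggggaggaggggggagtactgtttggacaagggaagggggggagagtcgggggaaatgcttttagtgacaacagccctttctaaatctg
Myh2: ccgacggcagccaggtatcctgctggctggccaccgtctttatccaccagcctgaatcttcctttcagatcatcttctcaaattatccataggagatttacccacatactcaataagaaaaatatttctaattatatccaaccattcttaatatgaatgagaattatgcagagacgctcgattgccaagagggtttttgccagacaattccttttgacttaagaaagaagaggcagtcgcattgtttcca
Myh1: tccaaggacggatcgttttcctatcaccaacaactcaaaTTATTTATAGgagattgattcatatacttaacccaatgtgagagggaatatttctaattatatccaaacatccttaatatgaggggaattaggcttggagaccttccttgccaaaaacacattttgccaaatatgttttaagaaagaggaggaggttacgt
Myh4: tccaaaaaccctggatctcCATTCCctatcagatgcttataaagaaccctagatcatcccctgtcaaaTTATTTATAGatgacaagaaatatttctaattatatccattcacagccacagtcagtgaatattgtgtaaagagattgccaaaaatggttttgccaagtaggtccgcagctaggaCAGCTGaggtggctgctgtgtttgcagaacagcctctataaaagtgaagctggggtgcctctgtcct
In the stretches shown, Myh4 held matches of all 3 marked motifs, Myh1 of the MEF2 motif, Myh7 of the MCAT motif and Myh2 of none. Myh1 has a further MCAT match, GGAATG at -16 from the RefSeq start, beyond the end of its stretch. Its lack of MCAT above thus comes from where the stretch was ended. Among 32851 promoters of 300 bases, longer than the stretches shown, the MEF2 motif occurred in 3.19%, CAGCTG in 16.3% and CATTCC in 14.7%. TCAGGTT occurred in 4.07%, TGCTGAC in 4.67% and AAGGTCA in 4.72%. A match is a description of the letters, and its absence says nothing of the factor.

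Myh7 and its relatives Myh6 and Myh7b each host a microRNA in an intron, and the 3 microRNAs are known for acting with their hosts in fibre identity. Their mature sequences from RefSeq, on GRCm38.p6, are shown because the host genes were all higher in SO. Capitals mark the seed, bases 2 to 8.
mmu-miR-208a-3p, in Myh6: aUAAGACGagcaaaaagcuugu
mmu-miR-208b-3p, in Myh7: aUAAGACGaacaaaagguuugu
mmu-miR-499-5p, in Myh7b: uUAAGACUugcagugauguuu
They lie at chr14:54949072-54949093 (minus strand), chr14:54975710-54975731 (minus strand) and chr2:155622893-155622913 (plus strand), within their hosts and on the same strand. The first 2 share the seed UAAGACG, and all 3 share bases 2 to 7, UAAGAC. The hosts Myh6, the alpha heavy chain of the heart, and Myh7b, an ancient slow chain, were named for these microRNAs and after their values were seen. Myh7b read 3.92, 5.69, 5.74, 5.04 and 4.21 CPM in GA and 49.2, 56, 55, 50.7 and 53.2 CPM in SO, a difference of 3.42 ± 0.10 (SE). Myh6 was higher in SO by 1.90 ± 0.07 (SE) at 2.87 against 10.7 CPM. Neither overlapped between the muscles. Of the 31-base words of Myh7, 22.9% occur in other genes' transcripts, foremost those of Myh6. The shared words of Myh6 itself were not counted. How far its counts are separate from those of Myh7 was not tested. The 3 hairpin genes had no count in any of the 10 libraries, so the microRNAs themselves were not measured.

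Other slow and fast relatives, most of them of the sarcomere and the rest of calcium handling, ion transport and metabolism, were compared as pairs of transcripts. In 15 such pairs the slow share was larger in SO for every pair and no library of SO overlapped one of GA (exact permutation test, p = 0.0079 and adjusted p = 0.0079 for each, the smallest possible with n = 5 and 5). Shares again compare the genes per kb within a library. The size of the exchange differed between pairs. The alpha-actinins, which anchor thin filaments at the Z-disc, went from 9.09, 9.72, 8.93, 9.76 and 6.99% Actn2 in GA to 93.1, 97.7, 97.8, 97 and 98.2% in SO. Myosin-binding protein C, a regulator of the thick filament, went from 14.3 ± 1.41% Mybpc1 to 95.8 ± 1.33% (SD, n = 5). These pairs exchanged nearly completely, and SO mouse 1 was the lowest SO library in both.

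By CPM per kb, light chains, tropomyosin and the Z-disc protein myozenin reached about equal amounts of both forms in SO. The regulatory light chain Myl2 took 58.5 ± 3.34% beside Mylpf in SO and 2.04 ± 0.358% in GA, and the essential light chain Myl3 60.5 ± 3.14% beside Myl1 in SO and 1.7 ± 0.158% in GA (SD, n = 5). Tpm3 took 49.3 ± 3.2% beside Tpm1 in SO and 1.16 ± 0.0804% in GA. The M-band protein Myom3 took 50.1 ± 1.99% beside Myom2 in SO and 3.67 ± 0.685% in GA. For the troponins, the calcium switch of the thin filament, the fast form stayed the larger part of the SO transcripts. Troponin C was 30.6, 37, 37, 32 and 33.4% Tnnc1 in SO and 0.754 ± 0.0431% in GA. Troponin T was 28 ± 2.06% Tnnt1 in SO and 0.585 ± 0.0586% in GA, and troponin I 13.6 ± 1.78% Tnni1 in SO and 0.284 ± 0.0291% in GA (SD, n = 5). Per kb, the smallest slow share in SO was that of the inhibitory subunit, Tnni1. Its longest transcript has 2153 bases and that of Tnni2 has 895. In CPM without length, the SO means were 1048 for Tnni1 and 2772 for Tnni2. They were 1659 for Ckmt2 and 7270 for Ckm, and 1166 for Myoz2 and 447 for Myoz1. The order of the pairs and the balance of myozenin thus depend on length. Because the size of a share depends on transcript length, it was repeated without length and with the length of all exons. Every pair kept its direction. Each gene has the same length in all libraries, so with groups that do not overlap the direction could not change. The repeat therefore tells nothing of it.

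**Figure D2:**
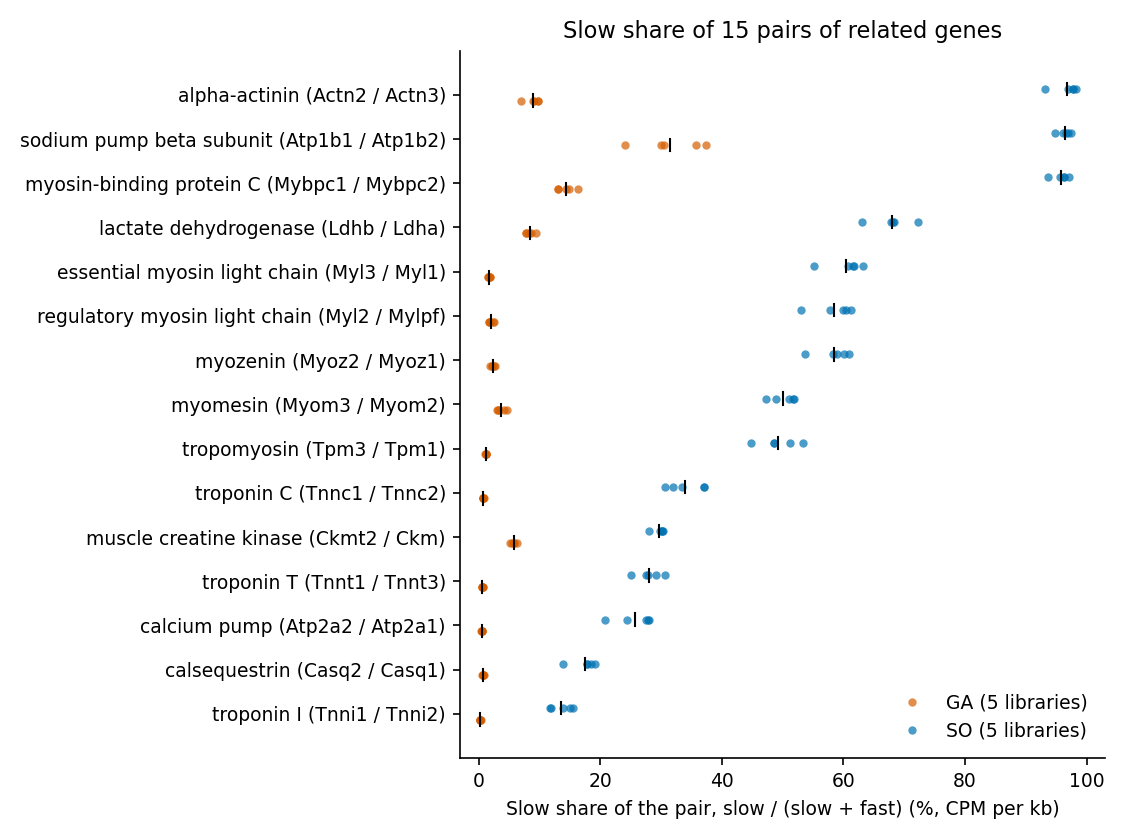
Slow share of each pair of related genes (horizontal axis, percent of the summed CPM per kb of the 2 genes), with 1 point per library and a bar at the group mean. The SO points lie to the right of the GA points in all 15 pairs, from a mean of 13.6% for troponin I to 96.8% for alpha-actinin. The order of the pairs depends on transcript length.

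Among 20 slow contractile genes 19 were higher in SO and 1 lower, with a median difference of 3.33 against 0.02 over all genes. The counts of this list and those below stand beside 31.8% higher and 29.6% lower over all genes tested. The 1 lower was Mybph, myosin-binding protein H of the thick filament, which went the way of most fast contractile genes listed below. Mybph read 126, 104, 168, 149 and 91.1 CPM in GA and 2.33, 6.77, 6.86, 1.39 and 5.62 CPM in SO, a difference of -4.80 ± 0.32 (SE), so all GA libraries were above all SO libraries. The largest differences were those of Tnnt1 at 4.86 ± 0.09, Tnnc1 at 4.86 ± 0.12 and Tnni1 at 4.77 ± 0.12 (SE). Tpm3-rs7, a retrocopy of Tpm3, had a difference of 4.52 ± 0.09 and, with 78.6% of its 31-base words found elsewhere, cannot be separated from its parent by these counts.

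Fhl1, a LIM protein of the sarcomere, and Csrp3, a stretch-sensing Z-disc protein, followed the slow genes with wide spread. Fhl1 read 771, 929, 708, 880 and 373 CPM in GA and 3969, 4356, 4149, 2179 and 4668 CPM in SO. Csrp3 read 38.7, 87.3, 42.4, 50.4 and 9.33 CPM in GA and 337, 467, 463, 83.4 and 363 CPM in SO, a difference of 2.91 ± 0.51 (SE, adjusted p = 0.000234). GA mouse 5 and SO mouse 4 were the low libraries of their groups in both genes, and for Csrp3 SO mouse 4 lay below GA mouse 2.

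Of 20 fast contractile genes 16 were lower in SO and 4 higher, with a median of -1.59. The 16 were led by Myh4, by Mss51 at -7.02 ± 0.35 (SE) and by Actn3 at -5.84 ± 0.37. Mss51, a mitochondrial protein of fast muscle, read 159, 110, 59.8, 161 and 143 CPM in GA and 1.8, 0.935, 0.845, 0.88 and 0.33 CPM in SO. Actn3 read 7408, 7621, 7572, 7342 and 7307 CPM in GA and 290, 101, 89.3, 97.3 and 72.9 CPM in SO. The groups lay far apart for both, and SO mouse 1 was the highest SO library. Those higher in SO were Myh2, Myh1, Mylk3 at 3.54 ± 0.23, a kinase of the regulatory light chain, and Smtnl1 at 2.59 ± 0.14, a regulator of contraction that responds to exercise. Mylk3 was low in both muscles, with 4 to 7 counts in a GA library and 43 to 78 in an SO library. Tpm2, the beta tropomyosin shared by slow and IIA fibres, was also higher in SO, by 1.48 ± 0.08, at 4451 against 12382 CPM.

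**Figure D3:**
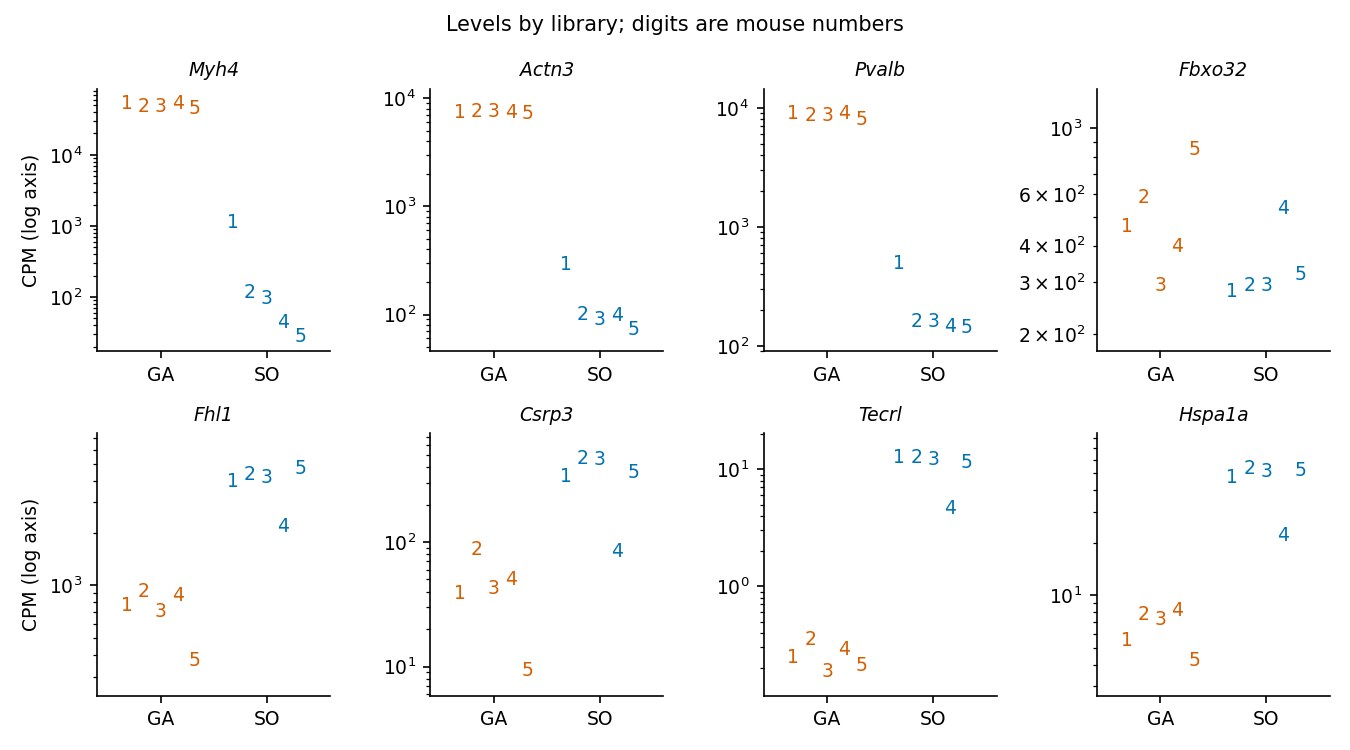
Levels of 8 genes (CPM, log axis) in each library, with the digit giving the mouse number. SO mouse 1 stands above the other SO libraries for Myh4, Actn3 and Pvalb, and SO mouse 4 stands apart for Fbxo32, Fhl1, Csrp3, Tecrl and Hspa1a, while GA and SO overlap for Fbxo32 and Csrp3.

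Most genes of calcium handling were lower in SO. Of 26 genes tested 7 were higher and 16 lower in SO, with a median of -0.56. Sln, sarcolipin, a small peptide that uncouples the calcium pump, had the largest difference upward in the list, 5.46 ± 0.18 (SE). Sln read 1.65, 2.56, 2.01, 2.41 and 1.64 CPM in GA and 73.4, 108, 106, 67.2 and 101 CPM in SO. Phospholamban, Pln, the other inhibitor of the pump, differed by 1.13 ± 0.14. The slow pump Atp2a2 rose from 0.516 ± 0.0717% of the pump transcripts in GA to 25.7 ± 3.12% in SO (SD, n = 5), beside the fast pump Atp2a1. Calsequestrin, the calcium store of the reticulum, was 17.4 ± 2.03% Casq2 in SO and 0.692 ± 0.102% in GA, so the fast form Casq1 remained the larger part in both muscles.

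Parvalbumin, Pvalb, the soluble calcium buffer of fast fibres, read 8999, 8662, 8679, 8939 and 8058 CPM in GA and 494, 159, 159, 146 and 144 CPM in SO, a difference of -5.30 ± 0.36 (SE). SO mouse 1 was again the only SO library far above the others. Cacng1, a subunit of the voltage sensor of the fibre, was lower in SO by -1.87 ± 0.06. Channels and pumps of the membrane divided evenly: of 16 tested 7 were higher and 7 lower, with a median of 0.20. The beta subunit of the sodium pump changed form, from 31.5 ± 5.29% Atp1b1 in GA to 96.4 ± 0.97% in SO beside Atp1b2 (SD, n = 5). The potassium channels Kcnf1 and Kcnc4 were lower by -4.20 ± 0.20 (SE) and -2.98 ± 0.21, and the calcium-gated channel Kcnn3 was higher by 2.10 ± 0.15.

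Glycolysis was the metabolic list that lay lowest in SO. Of 31 genes tested 19 were lower and 9 higher, with a median of -1.18, and the list took 4.85 ± 0.254% of counts in GA and 1.96 ± 0.0897% in SO (SD, n = 5). Pfkfb3, which makes the activator of phosphofructokinase, read 586, 602, 459, 543 and 671 CPM in GA and 24.6, 22.9, 23.9, 32.7 and 17.1 CPM in SO, a difference of -4.56 ± 0.16 (SE). Gpd2, the mitochondrial arm of the glycerol phosphate shuttle, differed by -3.99 ± 0.10, the glucose transporter Slc2a3 by -3.95 ± 0.16 and the aldolase Aldoa by -1.71 ± 0.09. The members higher in SO included Ldhb at 2.71 ± 0.05, the lactate dehydrogenase that favours lactate use, the lactate transporter Slc16a1 at 1.78 ± 0.06 and the glucose transporter Slc2a1 at 0.72 ± 0.12. Lactate dehydrogenase was 68 ± 3.21% Ldhb in SO and 8.41 ± 0.699% in GA beside Ldha (SD, n = 5).

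Glycogen enzymes gave 13 lower and 5 higher of 21, with a median of -0.40. The 3 largest differences downward were in subunits of phosphorylase kinase, which switches on glycogen breakdown: Phka1 at -2.97 ± 0.06, Phkb at -2.69 ± 0.05 and Phkg1 at -2.55 ± 0.12 (SE). Phka1 read 985, 981, 913, 954 and 873 CPM in GA and 130, 119, 119, 116 and 115 CPM in SO, with little spread in either group. On the side of glycogen building, the branching enzyme Gbe1 was higher by 1.44 ± 0.05 and the synthase Gys1 by 0.44 ± 0.09. Gys1 was not called when all 86 libraries shared a spread (adjusted p = 0.0666). Pygb, the brain form of phosphorylase, was higher by 0.78 ± 0.14.

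Of 20 genes of the phosphagen and purine cycle, 10 were lower and 6 higher, with a median of -0.28. Nt5c1a, a nucleotidase that makes adenosine from AMP, differed by -5.14 ± 0.20 (SE) and had 2 to 4 counts in an SO library against 79 to 121 in a GA library. Of the AMP deaminases, Ampd1 was lower by -2.03 ± 0.07 and Ampd3 higher by 1.87 ± 0.05. Creatine kinase was 29.7 ± 0.906% Ckmt2, the mitochondrial form, in SO and 5.73 ± 0.449% in GA beside the cytosolic Ckm (SD, n = 5). Gamt, the last enzyme of creatine synthesis, was lower by -1.81 ± 0.11, and the brain creatine kinase Ckb was higher by 0.74 ± 0.11.

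Fat metabolism was the reverse of glycolysis. Of 39 genes of fatty acid uptake and oxidation 33 were higher in SO and 3 lower, with a median of 1.15. Lpl, which frees fatty acids from lipoproteins at the vessel wall, read 483, 522, 626, 507 and 543 CPM in GA and 2404, 2886, 2957, 3783 and 2999 CPM in SO, a difference of 2.49 ± 0.11 (SE). Fabp3, the fatty acid carrier of slow and heart muscle, differed by 2.56 ± 0.10, and the thioesterase Acot1 by 2.56 ± 0.41. The groups were apart in each of them. The 3 lower members were the acyl-CoA synthetases Acsl3 at -1.0 ± 0.10 and Acsl6 at -0.88 ± 0.10 and Acacb, which makes the malonyl-CoA that restrains fat oxidation, at -0.27 ± 0.07. Acacb overlapped between the muscles. It lost its call when libraries were scaled by total counts (adjusted p = 0.0856) or all 86 shared a spread (adjusted p = 0.369).

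Triglyceride and lipid droplet genes gave 15 higher and 2 lower of 21, with a median of 0.50. The droplet protein Cidea was higher by 3.34 ± 0.20 (SE), the triglyceride synthase Dgat2 by 2.59 ± 0.14 and Plin5, which ties droplets to mitochondria, by 2.19 ± 0.18. Cidea was low in absolute terms, at 0.421 CPM in GA and 4.29 CPM in SO. Dgat2 read 24.5, 29.4, 28.6, 27.4 and 34.3 CPM in GA and 152, 150, 159, 244 and 163 CPM in SO, where mouse 4 was the highest. The 2 lower ones were Lpin1, a phosphatidate phosphatase, at -1.10 ± 0.08 and Gpam, the first enzyme of glycerolipid synthesis, at -0.98 ± 0.18.

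In ketone and amino acid use 17 of 24 genes were higher and 4 lower, with a median of 0.32. Bdh1, which oxidises the ketone body hydroxybutyrate, read 33.5, 32, 30.2, 37 and 24.9 CPM in GA and 233, 236, 239, 228 and 227 CPM in SO, a difference of 2.88 ± 0.08 (SE). The next step, Acat1, differed by 1.08 ± 0.04. The alanine transaminases went opposite ways, the mitochondrial Gpt2 at -2.76 ± 0.14 and the cytosolic Gpt at 1.11 ± 0.07.

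The TCA cycle gave 19 higher and 4 lower of 28, with a median of 0.41. Idh2, the NADP-dependent mitochondrial isocitrate dehydrogenase, led with 202, 208, 199, 209 and 188 CPM in GA and 1181, 1212, 1239, 1258 and 1289 CPM in SO, a difference of 2.62 ± 0.05 (SE). Malate dehydrogenase Mdh1 differed by 1.51 ± 0.06 and Pdk1, which switches off pyruvate dehydrogenase, by 1.24 ± 0.05. Lower in SO were the malic enzyme Me1 at -1.76 ± 0.06 and pyruvate carboxylase, Pcx, at -1.25 ± 0.08, the enzymes that join malate and oxaloacetate to pyruvate.

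The respiratory chain was higher in SO with small and even differences. In complex I 32 of 36 subunits were called higher, in complex II 4 of 4, in complex III 9 of 9, in complex IV with cytochrome c 16 of 16 and in the ATP synthase 17 of 18, and none of these was called lower. The medians were 0.46, 0.70, 0.62, 0.67 and 0.55. Among the larger were Ndufb3 of complex I at 1.21 ± 0.07 (SE), Sdhb of complex II at 1.01 ± 0.06, Uqcrq of complex III at 0.87 ± 0.07, the muscle subunit Cox7a1 of complex IV at 0.93 ± 0.10 and the rotor subunit gene Atp5g3 at 0.98 ± 0.07. Transcripts of the mitochondrial genome took 12.9 to 14.4% of counts in GA and 18.9 to 20.8% in SO, and 11 of 13 were called higher, with a median of 0.46. The largest of these, mt-Co3 at 0.95 ± 0.20 and mt-Atp6 at 0.88 ± 0.11, share nearly all of their 31-base words with other annotated genes. Ribosomal and import proteins of mitochondria gave 28 higher and 2 lower of 35, with Mrps9 the largest at 0.89 ± 0.06.

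Oxygen supply gave 15 higher and 3 lower of 24, with a median of 0.48. Myoglobin, Mb, which stores oxygen in the fibre, read 1651, 1582, 1499, 1727 and 1563 CPM in GA and 9407, 7986, 8046, 7717 and 8241 CPM in SO, a difference of 2.37 ± 0.08 (SE). Fgf1, a growth factor for vessels and muscle, differed by 1.87 ± 0.06. Egln3, an oxygen-sensing prolyl hydroxylase, read 36.7, 32.3, 37.1, 37.2 and 31.8 CPM in GA and 98.6, 84.4, 88, 90.1 and 106 CPM in SO, a difference of 1.41 ± 0.07, without overlap. Lower were Nos1, the nitric oxide synthase of the fibre membrane, at -2.28 ± 0.06 and the carbonic anhydrase Car14 at -0.54 ± 0.10, which was not called with the set as a term (adjusted p = 0.0684).

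**Figure D4:**
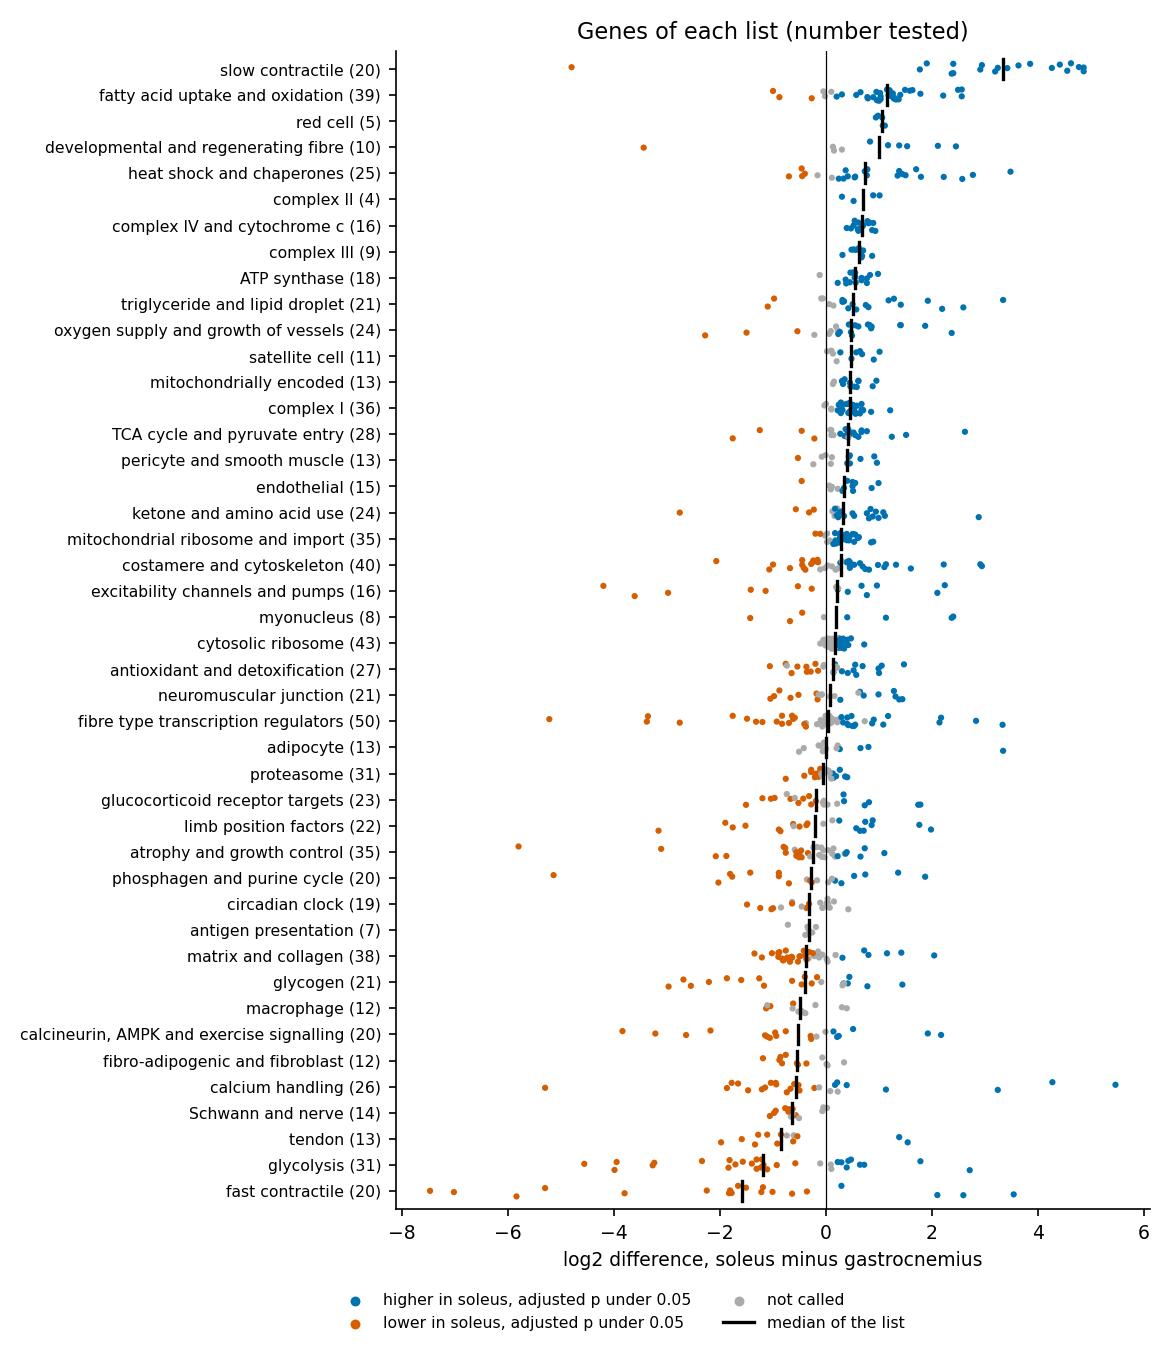
Differences (log2 of SO over GA, horizontal axis) of the tested genes of each list with 4 or more, ordered by the list's median (black bar), blue where called higher, orange where called lower and grey where not called. The medians run from -1.59 for fast contractile to 3.33 for slow contractile genes, and single genes such as Mybph lie on the other side of their list.

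Regulators of fibre type showed large differences in a few genes, while some of the best known, Ppargc1a and Nfatc1 among them, were not called. Of 50 tested, 17 were higher, 17 lower and 16 not called, with a median of 0.04, shares near the 31.8% higher and 29.6% lower over all genes. Lower in SO were Six2, a homeobox factor, at -5.22 ± 0.17 (SE), the large Maf factors Maf at -3.38 ± 0.11 and Mafa at -2.76 ± 0.15, which are known to bind the Myh4 promoter, Eya4, a transcriptional coactivator, at -3.36 ± 0.17, and Sox6, a repressor of slow genes, at -1.76 ± 0.08. Maf read 398, 429, 441, 413 and 312 CPM in GA and 44.2, 36.6, 36.1, 42.4 and 32 CPM in SO. Six2 read 20.5, 14.9, 16.1, 19.8 and 15.9 CPM in GA and 0.7, 0.561, 0.282, 0.403 and 0.367 CPM in SO. The groups were wide apart for both genes.

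Higher in SO were Prox1, a homeobox factor needed for slow fibres, at 3.33 ± 0.11, the estrogen-related receptors Esrrb at 2.83 ± 0.12 and Esrrg at 2.14 ± 0.14, which drive oxidative genes, and the cofactor Vgll2 at 2.17 ± 0.12 (SE). Prox1 read 2.59, 2.82, 2.13, 3.31 and 2.4 CPM in GA and 25.1, 28.6, 28, 23.1 and 29.1 CPM in SO. Small differences were found in the factors of the fast programme: Eya1 at -0.70 ± 0.09 and Tbx15 at -0.59 ± 0.05 were lower, while Six4 at 0.40 ± 0.11 was higher in SO. Six4 overlapped between the muscles and was not called with the set as a term (adjusted p = 0.625). Not called were Ppargc1a, the coactivator of mitochondrial genes, with 25.8, 27.2, 24.6, 30.5 and 23.4 CPM in GA and 27.9, 27.7, 24.9, 28.3 and 34.6 CPM in SO (adjusted p = 0.24), and Nfatc1, the calcineurin-driven factor of slow fibres (adjusted p = 0.0552). Nfatc1 had a difference of -0.17 ± 0.07 and crossed the threshold under DESeq2 (adjusted p = 0.0399) and without GA mouse 3, GA mouse 5, SO mouse 1 or SO mouse 5 (adjusted p from 0.0153 to 0.0463). It was called when 83 libraries shared a spread (adjusted p = 0.0169), but not when all 86 did (0.21) or with the set as a term (0.0871). Over the 8 treated groups Nfatc1 ran from -0.94 to -0.23 and Ppargc1a from -0.90 to -0.30.

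Signalling of calcineurin and AMP kinase gave 6 higher and 12 lower of 20, with a median of -0.52. Subunits of the AMP kinase differed in opposite directions. Prkag3, the gamma subunit of fast fibres, read 173, 165, 165, 181 and 187 CPM in GA and 15.5, 10.3, 9.61, 14.6 and 10.6 CPM in SO, a difference of -3.84 ± 0.12 (SE), and the beta subunit Prkab2 differed by -3.22 ± 0.10. Prkag1, the general gamma subunit, was higher by 0.51 ± 0.05. Camk2a, a calcium-dependent kinase, was lower by -2.64 ± 0.10. Feedback inhibitors of calcineurin were higher, Rcan1 at 2.17 ± 0.14 and Rcan2 at 1.92 ± 0.06. Without SO mice 1 and 4 and GA mouse 5, 3 genes of this list were called higher in place of 6, and 4 without GA mouse 3 as well.

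Factors that place a muscle along the limb also differed, although both muscles come from the same leg. Of 22 tested, 9 were higher and 10 lower, with a median of -0.20. The 3 neighbours of the Hoxd cluster, patterning genes of the limb, were lower in SO: Hoxd10 at -3.16 ± 0.13, Hoxd9 at -1.90 ± 0.06 and Hoxd8 at -1.76 ± 0.07 (SE). Hoxd9 read 19.4, 18.2, 17.6, 17.9 and 18.6 CPM in GA and 5.26, 4.49, 4.93, 5.21 and 4.63 CPM in SO. The T-box factor Tbx3 was higher by 1.76 ± 0.11 and its relative Tbx18 by 0.88 ± 0.14.

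**Figure D5:**
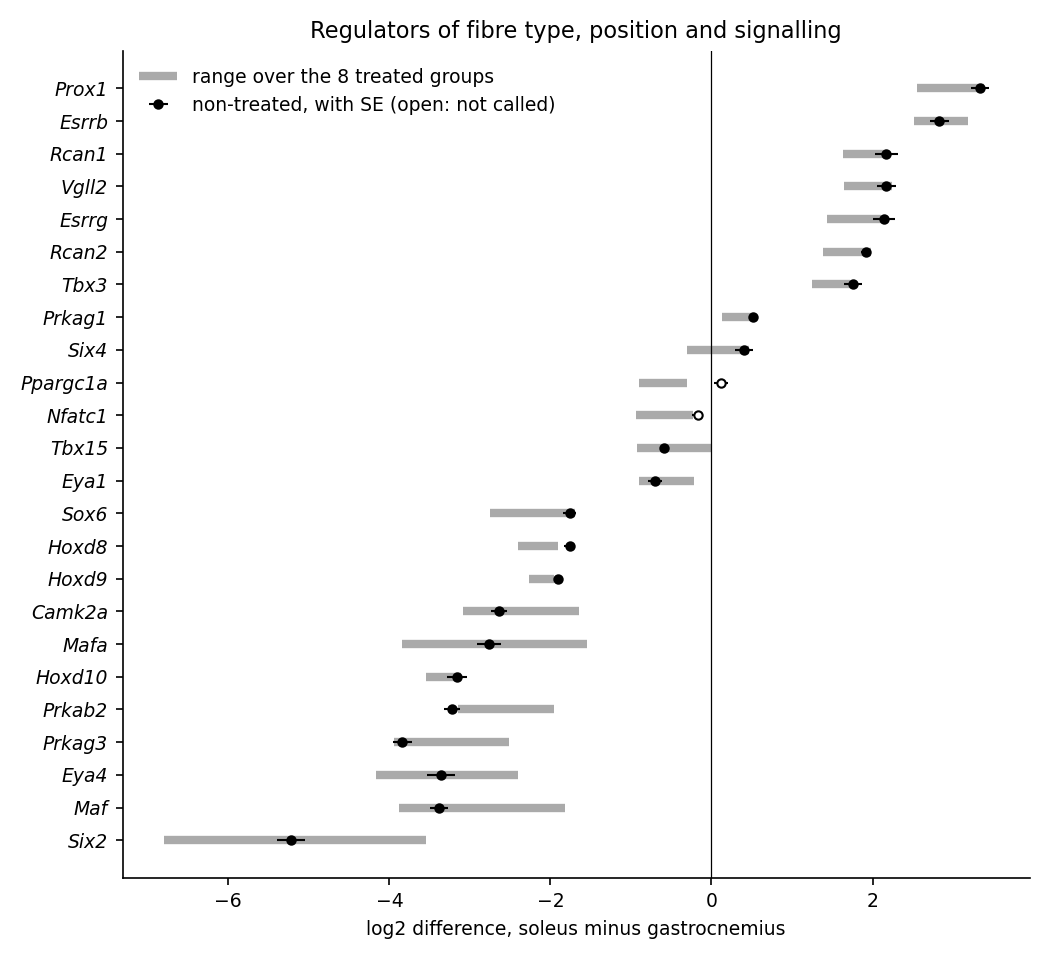
Difference of 24 regulators between the muscles (log2 of SO over GA, horizontal axis) in non-treated mice (points with SE, open where not called) and its range over the 8 treated groups (grey bars). Most bars lie on the same side of 0 as the point, and that of Ppargc1a lies below 0, from -0.90 to -0.30, where the point is at 0.12.

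Growth control gave 6 higher, 15 lower and 14 not called of 35, with a median of -0.24. Myostatin, Mstn, the secreted inhibitor of muscle growth, read 90.6, 73.9, 82.9, 78.2 and 121 CPM in GA and 3.13, 0.822, 0.985, 2.16 and 0.771 CPM in SO, a difference of -5.80 ± 0.28 (SE). Its relative Gdf11 was lower by -3.11 ± 0.11, and follistatin, Fst, which binds and blocks both, was higher by 1.10 ± 0.16. Igfbp5, a binding protein of insulin-like growth factors, differed by -2.08 ± 0.21. Ddit4, an inhibitor of mTOR, was higher by 0.73 ± 0.15 and the ubiquitin ligase Fbxo30 by 0.65 ± 0.09.

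The ligases that mark atrophy varied widely between mice. Fbxo32 read 463, 582, 292, 397 and 851 CPM in GA and 280, 292, 293, 536 and 319 CPM in SO (adjusted p = 0.0598). GA mouse 5 and SO mouse 4 were the high libraries, and the muscles overlapped. Fbxo32 was called without GA mouse 3 (adjusted p = 0.0124), without GA mouse 4 (adjusted p = 0.0484) or without SO mouse 4 (adjusted p = 0.00824). It was also called when all 86 libraries shared a spread (adjusted p = 0.0099) or 83 did (0.00112). By DESeq2 (adjusted p = 0.107), with scaling by total counts (0.11) and with the set as a term (0.227) it was not called. Trim63 was lower in SO by -0.56 ± 0.16 (SE, adjusted p = 0.0081), also with overlap.

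Heat shock proteins and chaperones gave 19 higher and 4 lower of 25, with a median of 0.73. Hspb7, a small heat shock protein of striated muscle, read 244, 286, 231, 280 and 153 CPM in GA and 2559, 2952, 2929, 2007 and 2833 CPM in SO, a difference of 3.48 ± 0.17 (SE). Cryab, which guards desmin and titin, differed by 2.22 ± 0.14. The inducible Hspa1a read 5.53, 7.72, 7.27, 8.17 and 4.25 CPM in GA and 47.2, 53.1, 51.1, 21.9 and 51.8 CPM in SO, and its near copy Hspa1b differed by 2.57 ± 0.32. SO mouse 4 was low in these genes while still above GA. Unc45b, the folding helper of myosin, was lower by -0.70 ± 0.04.

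Antioxidant genes were divided, 12 higher and 9 lower of 27, with a median of 0.14. Catalase, Cat, was higher by 1.47 ± 0.09 (SE) and the peroxiredoxin Prdx6 by 1.00 ± 0.04, while the secreted glutathione peroxidase Gpx3 was lower by -1.06 ± 0.15 and Gclm, of glutathione synthesis, by -0.76 ± 0.08. Cytosolic ribosomal proteins gave 21 higher and 0 lower of 43, led by Rpl3 at 0.72 ± 0.10 and Rplp0 at 0.47 ± 0.05, with a median of 0.17. That count was 32 without SO mouse 4 and 32 with scaling by total counts. By DESeq2 1 member was lower. The proteasome gave 7 higher and 9 lower of 31, between Psmd8 at -0.76 ± 0.07 and Psmb1 at 0.40 ± 0.05, and 4 were called higher without GA mouse 4, SO mouse 3 or SO mouse 5 in turn. Its shares were no larger than the 31.8% higher and 29.6% lower over all genes.

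Clock genes gave 0 higher and 7 lower of 19, with a median of -0.32. Bhlhe41, a repressor of the clock, was lower by -1.49 ± 0.08 (SE), the nuclear receptor Rora by -1.24 ± 0.09 and the output factor Hlf by -1.03 ± 0.13. Targets of the glucocorticoid receptor were mixed in these mice without dexamethasone, 6 higher and 10 lower of 23. Gadd45g, a stress sensor, differed by -1.51 ± 0.08, the transcription factor Tsc22d3 by -1.20 ± 0.09 and Arrdc2 by -1.04 ± 0.23. Cebpb, a factor of the acute response, was higher by 1.74 ± 0.13. Pdk4, the fasting kinase of pyruvate dehydrogenase, read 83, 238, 68.3, 205 and 238 CPM in GA and 195, 465, 470, 948 and 776 CPM in SO, a difference of 1.78 ± 0.42. Its spread within each muscle was several-fold and SO mouse 1 lay within the GA range.

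The neuromuscular junction gave 8 higher and 7 lower of 21, with a median of 0.07, shares near the 31.8% higher and 29.6% lower over all genes. Subunits of the acetylcholine receptor were higher in SO, Chrnd by 1.44 ± 0.12 (SE) and Chrna1 by 1.31 ± 0.12, as was the adhesion molecule Ncam1 by 1.38 ± 0.13. The esterase Ache, which ends transmission, was lower by -1.05 ± 0.12, and the receptor kinase Musk by -0.98 ± 0.18. Genes of developing fibres gave 6 higher and 1 lower of 10, with a median of 1.00. Embryonic myosin, Myh3, read 3.68, 15.8, 2.72, 7.88 and 2.64 CPM in GA and 27.9, 47.3, 47.6, 28.4 and 29.7 CPM in SO, a difference of 2.45 ± 0.41, or 3.09 without GA mouse 2, which was the highest GA library. Of the 31-base words of Myh3, 11.1% occur in other genes' transcripts, among them Myh1 and Myh2. Cardiac troponin T, Tnnt2, was higher by 2.11 ± 0.10, and the stretch-induced Ankrd1 by 1.53 ± 0.35 with overlap. Ankrd1 was not called with the set as a term (adjusted p = 0.187). Cardiac actin, Actc1, went the other way with 253, 197, 403, 432 and 181 CPM in GA and 35.3, 24.9, 26.2, 17.7 and 30.9 CPM in SO, a difference of -3.44 ± 0.27.

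Structural proteins of the costamere and cytoskeleton gave 20 higher and 13 lower of 40, with a median of 0.29. Lmod2, which sets the length of thin filaments, was higher by 2.94 ± 0.06 (SE) and the titin cap Tcap by 1.13 ± 0.08. The intermediate filament protein Synm was lower by -2.07 ± 0.07 and the Z-disc LIM protein Pdlim3 by -1.07 ± 0.11.

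Markers of cells other than fibres differed as well. In bulk tissue, fewer cells of a type and less RNA per cell cannot be told apart. Endothelial markers gave 9 higher and 1 lower of 15, with a median of 0.34 and a summed share of counts of 0.05 to 0.0538% in GA and 0.0586 to 0.0748% in SO. Cldn5, a tight junction protein, was higher by 0.99 ± 0.23 (SE) and Egfl7 by 0.86 ± 0.04, while Vwf, at -0.46 ± 0.10 with overlap, was not called with the set as a term (adjusted p = 0.588). Pericyte and smooth muscle markers gave 7 higher and 1 lower of 13, with Higd1b at 0.96 ± 0.12, Kcnj8 at 0.91 ± 0.06 and, lower, Abcc9 at -0.53 ± 0.05. Red cell genes were higher in 5 of 5, with a median of 1.06 and Hba-a2 at 97.4, 98.7, 85, 113 and 104 CPM in GA and 197, 224, 230, 173 and 226 CPM in SO. Satellite cell markers gave 7 higher and 0 lower of 11, with Sdc4 at 1.01 ± 0.09 and Myf5 at 0.90 ± 0.13. Adipocyte markers gave 4 higher and 0 lower of 13, with a median of 0.00 and a share of higher members near the 31.8% of all genes. The 4 include Cidea, Lipe and Fabp4, which fibres and vessels also carry, and Lipe was not called with the set as a term (adjusted p = 0.0682).

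Connective tissue and nerve lay the other way. Fibroblast markers gave 0 higher and 8 lower of 12, with a median of -0.54, Smoc2 at -1.19 ± 0.07 (SE), Dcn at -0.88 ± 0.09 and Pdgfra at -0.86 ± 0.12, and took 0.143 to 0.176% of counts in GA and 0.0844 to 0.119% in SO. Matrix and collagen genes gave 6 higher and 24 lower of 38, with a median of -0.38. Lox, which cross-links collagen, was lower by -1.35 ± 0.18, the inhibitor Timp2 by -1.21 ± 0.10 and Col1a2 by -1.02 ± 0.14. Against this, Timp1 was higher by 2.04 ± 0.34, Postn by 1.42 ± 0.23 and Col8a1 by 1.15 ± 0.23. Timp1 was not called with the set as a term (adjusted p = 0.328). The fibroblast markers moved with the matrix genes, and their part in the result was not tested.

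Tendon markers gave 2 higher and 9 lower of 13, with a median of -0.85, and the summed share overlapped, 0.0218 to 0.0549% in GA and 0.0109 to 0.0324% in SO. Without SO mice 1 and 4 and GA mouse 5, 4 were lower in place of 9, and 5 without GA mouse 3 as well. Fmod, a collagen-binding proteoglycan, read 102, 286, 200, 291 and 193 CPM in GA and 27.8, 81.3, 82.8, 49.4 and 31 CPM in SO, with GA mouse 1 the lowest of GA. Kera was lower by -1.59 ± 0.29 (SE) with overlap, at 3.85 CPM in GA mouse 1 and 4.95 CPM in SO mouse 4. The tendon factor Scx was higher by 1.54 ± 0.08, at 4.06, 4.08, 4.33, 4.32 and 4 CPM in GA and 11.4, 12.8, 14.1, 11.1 and 11.2 CPM in SO. The lubricant Prg4 read 7.21, 17.8, 18, 18.6 and 14.7 CPM in GA and 8.99, 65.4, 65.8, 8.03 and 50.9 CPM in SO (adjusted p = 0.0358). SO mice 1 and 4 lay within the GA range, and Prg4 was not called by DESeq2 (adjusted p = 0.051), with the set as a term (adjusted p = 0.103) or when any 1 library other than these 2 was left out (adjusted p from 0.0507 to 0.1).

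Schwann cell and nerve markers gave 0 higher and 8 lower of 14, with a median of -0.64. Periaxin, Prx, a protein of the myelin sheath, differed by -0.98 ± 0.20 (SE) without overlap and was not called with the set as a term (adjusted p = 0.346). Macrophage markers gave 0 higher and 3 lower of 12, among them the scavenger receptors Mrc1 at -1.13 ± 0.17 and Cd163 at -1.05 ± 0.19, and 7 were lower without SO mouse 2 or without SO mouse 3. With all 10 libraries the share lower was below the 29.6% over all genes. Mrc1 was not called with the set as a term (adjusted p = 0.0579) or within the treated libraries of the second set (adjusted p = 0.123). Antigen presentation genes gave 0 called of 7 by edgeR, with 2 lower at an unadjusted p under 0.05 and 1 lower by DESeq2. No T and B cell marker of 10 and 1 neutrophil marker of 8, Mmp9, passed the filter on low counts.

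Some of the largest differences fell in genes outside these lists, named because they ranked among the 10 largest in a direction. Lower in SO were Odf3l2, related to a sperm tail protein, at -7.28 ± 0.36 (SE), the neurexin-family adhesion protein Cntnap2 at -6.87 ± 0.22, the spindle protein Fam83d at -6.68 ± 0.34, the growth factor carrier Fgfbp1 at -6.57 ± 0.20 and the cadherin Cdh4 at -5.80 ± 0.18. In SO they rest on few counts: 1 to 8 a library for Odf3l2, 0 to 5 for Cntnap2, 1 to 4 for Fam83d, 1 to 4 for Fgfbp1 and 7 to 14 for Cdh4. In GA the same genes had 299 to 673, 256 to 336, 169 to 349, 190 to 268 and 462 to 768 counts. Without SO mice 1 and 4 and GA mouse 5 the difference of Odf3l2 was -8.85, so its size is loosely fixed at this depth.

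Higher in SO were Tecrl, a reticulum reductase known from the heart, at 5.35 ± 0.33, Sim1, a basic helix-loop-helix factor of the hypothalamus, at 5.14 ± 0.23, and the synaptic vesicle protein Sv2b at 4.80 ± 0.26 (SE). Tecrl read 0.245, 0.348, 0.186, 0.288 and 0.209 CPM in GA and 12.7, 12.5, 12.2, 4.58 and 11.4 CPM in SO. Sim1 read 0.245, 0.0633, 0.261, 0.36 and 0.139 CPM in GA and 7.93, 6.17, 6.86, 7.62 and 9.18 CPM in SO. Sim1 had 2 to 10 counts in a GA library and 165 to 250 in an SO library. On GRCm38 Sim1 lies at 50894754 to 50989152 of chromosome 10, Tecrl at 83278145 to 83355195 of chromosome 5 and Sv2b at 75114894 to 75309262 of chromosome 7.

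The differences at rest were then read in the 8 dexamethasone-treated groups, which share no library with the comparison. In none of these groups do libraries of both muscles lie in 1 set, so set and muscle cannot be told apart there either. Of the 1106 genes that passed the test of over 2-fold, 1032 to 1077 were tested in each group, and 99.2 to 99.7% of these had the same direction there. Of all 8441 genes called, 89.7 to 96.2% of those tested had the same direction. The share that was also called was 77.9 to 83.9% in the 5 groups with extracts JGT03 or JGT04 or resveratrol, 70.4% with dexamethasone alone, and 21.3% and 70.7% with JGT02 at 100 and 400 mg/kg. Those 2 groups hold the 3 libraries that stand apart, and without them 82.8% and 82.4% were called in the same direction. Of all genes tested, 59% were called with dexamethasone alone, 68.2% and 69.6% with JGT03 at 100 and 400 mg/kg, 69.9% and 69.9% with JGT04 at the same doses and 72.2% with resveratrol. With JGT02 the shares were 13.6% and 51.1%, or 62.5% and 62.3% without the 3 libraries. Within the second set alone, 11 GA and 10 of 12 SO libraries of treated mice, without 2 of those that stand apart, gave 10180 called genes of 13683 (74.4%), and of the genes over 2-fold at rest 1060 of the 1068 tested were called there in the same direction. The GA libraries there were given JGT04 or resveratrol and the SO libraries dexamethasone alone or JGT02, so muscle and treatment cannot be told apart in them.

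Of the 204 called genes among the named ones, 187 were tested in all 8 treated groups and had the same direction in each. The rest include genes that did not pass the filter in a group. Nt5c1a, for example, had the same direction in 7 groups, from -6.76 to -5.02. Some differences were smaller in the treated groups. Sln differed by 2.25 to 4.61 in the treated groups against 5.46 at rest, Mybph by -3.89 to -0.79 against -4.80, and Actc1 by -2.48 to -0.38 against -3.44. Sox6 ran from -2.75 to -1.70 against -1.76. Some genes did not keep their direction: Egln3 ran from -0.77 to 0.05 against 1.41 at rest, and Cebpb from -1.05 to 1.67 against 1.74. Whether these sizes differ between treated and non-treated mice was not tested.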

How the data were processed

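RNA of the gastrocnemius and soleus of mice was made into directional mRNA libraries and read as 100 bp pairs on an MGI sequencer, per the labels' protocols. The submitters' processing notes name RSEM 1.3.3, FastQC 0.11.9, STAR 2.7.3a and Trim Galore 0.6.5, without their roles, and the builds GRCm38 and mm10. The deposited table holds expected counts per gene, estimated by the authors and not normalised, and 92.2% of its values are whole. An expected count divides reads shared by related genes, so members of near-identical families are less certain. Whether counting used the strand is not given in the sources used here, and 57 of 207 named genes have exons over exons on the other strand.

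Expected counts were rounded. Genes that passed edgeR's filterByExpr (13757 of 22576 with a count) were tested in the 10 non-treated libraries with edgeR 4.0.16 in R 4.3.3, using TMM factors, the quasi-likelihood test, Benjamini-Hochberg adjustment and a threshold of 0.05. Differences over 2-fold were tested with glmTreat at a log2 of 1. CPM values are scaled by TMM, and each SE is the absolute difference divided by the square root of its F. Depth was 25.5 to 32.1 M counts. In simulated data with 13655 genes, 67 genes were changed by 1.5-fold, 67 by 2-fold and 66 by 4-fold. Of these 70.1%, 89.6% and 98.5% were recovered, and 0.059% of unchanged genes were called. The simulation held few changed genes and no outlying libraries or sets, while 61.4% of genes were called in the data. Its rates therefore need not hold for the data.

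Shares used CPM per kb of the longest annotated transcript (GENCODE vM21), with exact two-sided permutation tests. Transcript words shared between genes were counted at 31 bases. Lists are described by counts of calls and medians, with no test of the list. The named genes are the 10 largest differences in each direction at a mean of at least 5 CPM without overlap, up to 3 members per list and direction, the pairs, the adult heavy chains and a few known regulators, and a few genes that meet this rule are not reported here. Members and lists were chosen with earlier results of these data known. The alternatives were DESeq2 1.42.0, other scalings and filters, a replicate block, fits with all 86 libraries with and without a set term, and leaving out libraries.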

Additional observations from a re-analysis of the deposited data

Results flagged for a closer look

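In groups of 5, a library is given here where its gap to the nearest other library passed 0.71 of the group's range. Chance alone gives this for about 5% of groups. All levels are in CPM.

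SO mouse 1 held more of several fast fibre genes than the other SO libraries. Its Myh4 was 1114 (others 27.4 to 114), its Actn3 290 (72.9 to 101), its Pvalb 494 (144 to 159) and its Tnni2 3253 (2551 to 2750). Tpm1 read 4959 (3782 to 3989), Myoz1 576 (383 to 438), Atp1b2 47.6 (25.7 to 30.9), Camk2a 93.9 (65.9 to 73.1), Car14 28.3 (19 to 20.6) and Phka1 130 (115 to 119). Pln was low at 6.03 (8.34 to 9.18). The same library had the lowest slow shares of alpha-actinin at 93.1% (97 to 98.2), of calsequestrin at 13.9% (17.8 to 19.1) and of muscle creatine kinase at 28.1% (29.8 to 30.3), and the highest Myh4 share at 5.47% (0.154 to 0.613).

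SO mouse 4 was high in Dgat2 at 244 (150 to 163), Gpam at 57.6 (27.4 to 31.8), Acacb at 279 (212 to 231), Fbxo32 at 536 (280 to 319), Igfbp5 at 327 (156 to 170), Tsc22d3 at 60.7 (46.2 to 49.2), Cldn5 at 28.6 (12 to 15.2), Kera at 4.95 (2.33 to 3.03), Gpt at 30.2 (24.9 to 26.1) and Tbx3 at 32.7 (21.8 to 24.3). It was low in Fhl1 at 2179 (3969 to 4668), Hspa1a at 21.9 (47.2 to 53.1), Actn2 at 3336 (4095 to 4384), Myl3 at 3518 (3955 to 4043), Smtnl1 at 253 (311 to 323), Vgll2 at 209 (270 to 286), Tecrl at 4.58 (11.4 to 12.7) and Ampd3 at 49.8 (54.4 to 55.7). SO mouse 5 was low in Dcn at 182 (216 to 223) and Kcnn3 at 6.35 (9.75 to 11).

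GA mouse 3 was high in Arrdc2 at 24.2 (9.39 to 13.4) and Prx at 21.5 (11.8 to 14.2). It was low in Acsl6 at 22 (26.2 to 26.6), Hba-a1 at 60.6 (72.3 to 73.2) and Synm at 876 (the next lowest 969). GA mouse 5 was high in Fam83d at 12.1 (6.12 to 7.14), Mmp9 at 2.37 (0.559 to 1.08) and Rora at 147 (107 to 114), and low in Eya1 at 20.3 (25.2 to 26.4), Ldha at 1866 (2248 to 2401) and Myoz1 at 1941 (2145 to 2197).

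For 3 genes the muscles were apart one way at rest and apart the other way in a treated group. Egln3, higher in SO at rest, differed by -0.77 with dexamethasone alone, by -0.32 with JGT02 at 100 mg/kg and by -0.41 with resveratrol. Gys1 differed by -0.50 with dexamethasone alone. Cebpb differed by -1.05 with JGT04 at 400 mg/kg and by -0.99 with resveratrol. The difference between treated and non-treated mice was not tested.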

How the results depend on the processing

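The number of genes called was 8096 to 8585 and of genes over 2-fold 1068 to 1143 when 1 library was left out. Groups that do not overlap fix the p of the pairs and heavy chain shares, so leaving out libraries tells nothing of these. DESeq2 called 8260 genes, 911 of them over 2-fold. The set term with all 86 libraries gave 3477 called and 456 over 2-fold, and 48 of 207 named genes lost their call. Its spread holds the 3 treated libraries that stand apart. In the group given JGT02 at 100 mg/kg, 1876 genes were called and 8593 without those libraries. Within the treated libraries of the second set, an alternative chosen after the data were seen in which muscle and treatment cannot be told apart, 4 named genes had the other sign: Egln3 (-0.16), Ppargc1a (-0.44), Prx (0.14) and Vwf (0.24). Eya1 (0.00) and Gys1 (-0.00) lay at 0. The cause was not tested.

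Same-numbered mice had correlations of deviations of 0.32, 0.044, 0.16, -0.09 and -0.042, and the labels do not say that a number marks 1 animal. The samples share only a number. With it as a replicate block 8460 genes were called. A paired sign-flip test put 0 pairs and 0 heavy chain shares past the threshold, since 5 pairs allow no p below 0.0625.

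Depth limits the size of differences in genes with under 10 counts in a library, such as Odf3l2.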
